A study of Drosophila melanogaster with 4 samples.

Results

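Mitochondrial ribosomal protein genes of Drosophila melanogaster, all genes whose symbol starts with mRpL or mRpS, were read in RNA from adult ovaries after a knockdown of piwi in the embryo. They were found by matching the RefSeq transcripts in the deposited tables to gene symbols, which gave 73 genes with 91 transcripts among 14776 matched genes. Of these 73, 47 have a symbol for the large subunit (mRpL) and 26 for the small subunit (mRpS). The split into large and small subunit below follows the symbol alone, also for mRpS18A, mRpS18B and mRpS30. It may therefore differ from where a protein sits. The control group, white-embKD, carried a hairpin against the eye-colour gene white, and the other group, piwi-embKD, a hairpin against piwi, whose product is an Argonaute protein that silences transposons with piRNAs. Both groups shared 1 copy of a vasa-GAL80[ts] transgene and the daughterless driver da-GAL4 over the hairpin. Their maintenance temperature was 18 °C and their embryonic temperature 28 °C, where the temperature-sensitive GAL80 no longer holds GAL4 back. Each group had 2 libraries, which the labels call biological replicates, and the age of the females is not given in the sources used here. Each group carried its own hairpin line, so a difference between the lines and an effect of the knockdown cannot be told apart.

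The mitochondrial ribosome translates the few mRNAs encoded by mitochondrial DNA, all of which specify subunits of the respiratory chain or of ATP synthase. Its RNAs come from mitochondrial DNA, whereas its proteins are encoded in the nucleus, made in the cytosol and imported. Some have a homologue in the bacterial ribosome and others are found in mitochondria alone. In the fly ovary, mitochondria multiply in the germline and are passed on to the egg, and the mitochondrial ribosome is needed in every cell that respires.

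Depth, inferred from the smallest step between the deposited values, ran from 16194219 to 20025084 effective counts a library and was lower for piwi-embKD. All levels below are normalized effective counts, the effective count that the eXpress program estimated for a target times a factor set by the authors. An effective count is not a plain number of assigned fragments. The target of the hairpin, piwi, had 410.0 and 401 for white-embKD, and 238 and 121 for piwi-embKD replicates 1 and 2 (log2 change −1.25 ± 0.29 SE, limma adjusted p = 0.0562). The germline marker vas lay between 312 and 359 in all 4 libraries. Of 7 germline markers tested limma called 0, with a summed level of 5277 to 5514 for white-embKD and 4530 to 4869 for piwi-embKD. Both piwi libraries lay above both white libraries in otu and below both in nanos, osk and bam. The groups overlapped in the other 3, vas among them, where 59% of all features had no overlap. Of 6 testis markers, 4 (Mst87F, Mst84Da, Mst98Ca and dj) were listed at 0 in all 4 libraries. The other testis markers were above 0, betaTub85D at 0.14 to 0.33 and twe, a cell cycle phosphatase gene, at 257 and 261 for white-embKD and 218 and 187 for piwi-embKD. Of the marker genes tested, 5 of 7 for follicle cells were higher in the piwi-embKD libraries (summed level 1662 to 1749 for white-embKD and 3481 to 3546 for piwi-embKD), as were 4 of 10 for muscle. The muscle sum was 695 to 719.9 for white-embKD and 706 to 787 for piwi-embKD, mostly from Tm1, and over the other 9 genes, each with both piwi-embKD libraries above both controls, it was 125 to 133 and 194 to 235. Of 8 for gut, 6 were lower (summed level 150.0 to 170 for white-embKD and 0.653 to 27.8 for piwi-embKD). The part of these tissues in the values below was not tested. In such bulk RNA, fewer cells of a type and less RNA per cell cannot be told apart.

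None of the 73 genes passed the test between the groups. All 73 had a mean of at least 0.995 and were therefore tested. With limma on the log2(value + 0.995) scale and p-values adjusted over all 8118 features, 0 were higher and 0 lower, where 6.85% of all features were called, 5.17% higher and 1.68% lower. At an unadjusted p under 0.05 limma placed 1 gene higher and 0 lower, where 25.1% of all features were placed. The log2 change, piwi-embKD minus white-embKD, was above 0 for 37 genes and below 0 for 36, where it was below 0 for 55.7% of all features. Its median was 0.01, against −0.04 over all features tested, and it changed sign to −0.03 when the columns were rescaled to the same total. The median size of the change, whatever its direction, was 0.08 for these genes and 0.19 for all features.

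The intervals bound what the 4 libraries could show. The 95% interval of the log2 change had a median half-width of 0.29. The interval lay within a 2-fold change in either direction for 71 of the 73 genes, against 83.4% of all features, and within a 1.5-fold change for 65, against 61.2%. The intervals of mRpL42 and mRpL36 reached past 2-fold. Those of mRpL34, mRpL50, mRpS18C, mRpL33, mRpS21 and mRpS33 reached past 1.5-fold only, with their outer bounds at 0.67, 0.60, 0.72, −0.62, −0.61 and −0.65. For these 8 genes the intervals thus include a 1.5-fold change.

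**Figure D1:**
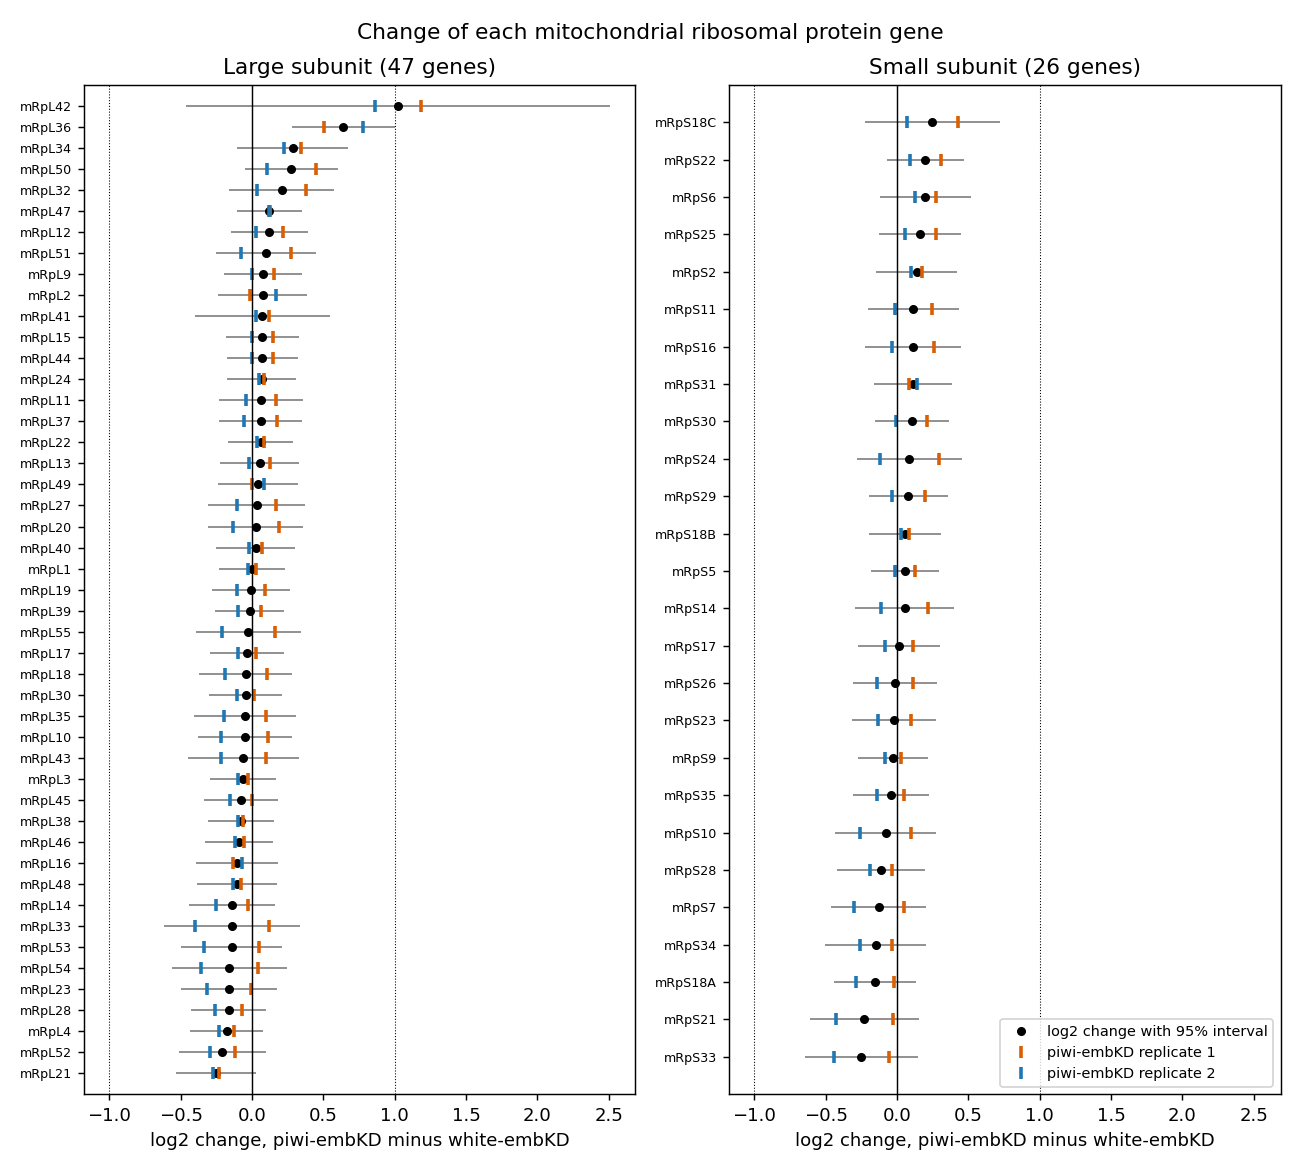
Log2 change between the groups (x axis, piwi-embKD minus white-embKD) of each gene (y axis), for the large and the small subunit. Black points are the fitted change with its 95% interval, coloured ticks are each piwi-embKD library minus the mean of the white-embKD libraries, and dotted lines mark a 2-fold change. The intervals of 71 of 73 genes lie between the dotted lines.

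The groups overlapped in most genes. Both piwi libraries lay above both white libraries in 9 genes, where 25.9% of all features did so. Both lay below in 10 genes, where 33.1% of all features did so, and in the other 54 genes the groups overlapped, where 59% of all features had no overlap. The 9 were mRpL36, mRpL34, mRpL50, mRpS22, mRpS6, mRpS25, mRpS2, mRpL47 and mRpL22. The 10 were mRpL21, mRpL52, mRpL4, mRpL28, mRpS18A, mRpL14, mRpL48, mRpL46, mRpL38 and mRpL3, of which 9 carry an mRpL symbol. Of the 9 higher genes 5 carry one, and of all 73 genes 47 do.

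The count of 0 did not hold when either piwi library was left out. With 1 piwi library, the residual spread came from the white pair alone. Over all features the median absolute log2 difference was 0.08 in the white pair and 0.19 in the piwi pair. The calls and adjusted p-values of such fits, here and below, thus hold no spread between piwi libraries. Without piwi-embKD replicate 1, limma called 1 gene higher (mRpL36) and 6 lower (mRpL28, mRpL53, mRpS18A, mRpS21, mRpS33 and mRpS7), but it then called 36.1% of all features, and 9.59% of these genes. Without piwi-embKD replicate 2 it called 3 genes higher (mRpL36, mRpL50 and mRpS22) and 0 lower, which is 4.11% of these genes against 19.9% of all features. Without either white library it called 0.

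Summed over the 73 genes, the levels were 4594 and 4630 for white-embKD, and 4965 and 4359 for piwi-embKD replicates 1 and 2. The white libraries thus lay between the piwi libraries. As a share of the whole library this was 0.464% and 0.477% for white-embKD and 0.488% and 0.434% for piwi-embKD. Mean summed levels were 4612 ± 25.4 and 4662 ± 428 (SD, n = 2 each), a ratio of 1.01, and the difference between them was smaller than the spread of the piwi libraries.

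**Figure D2:**
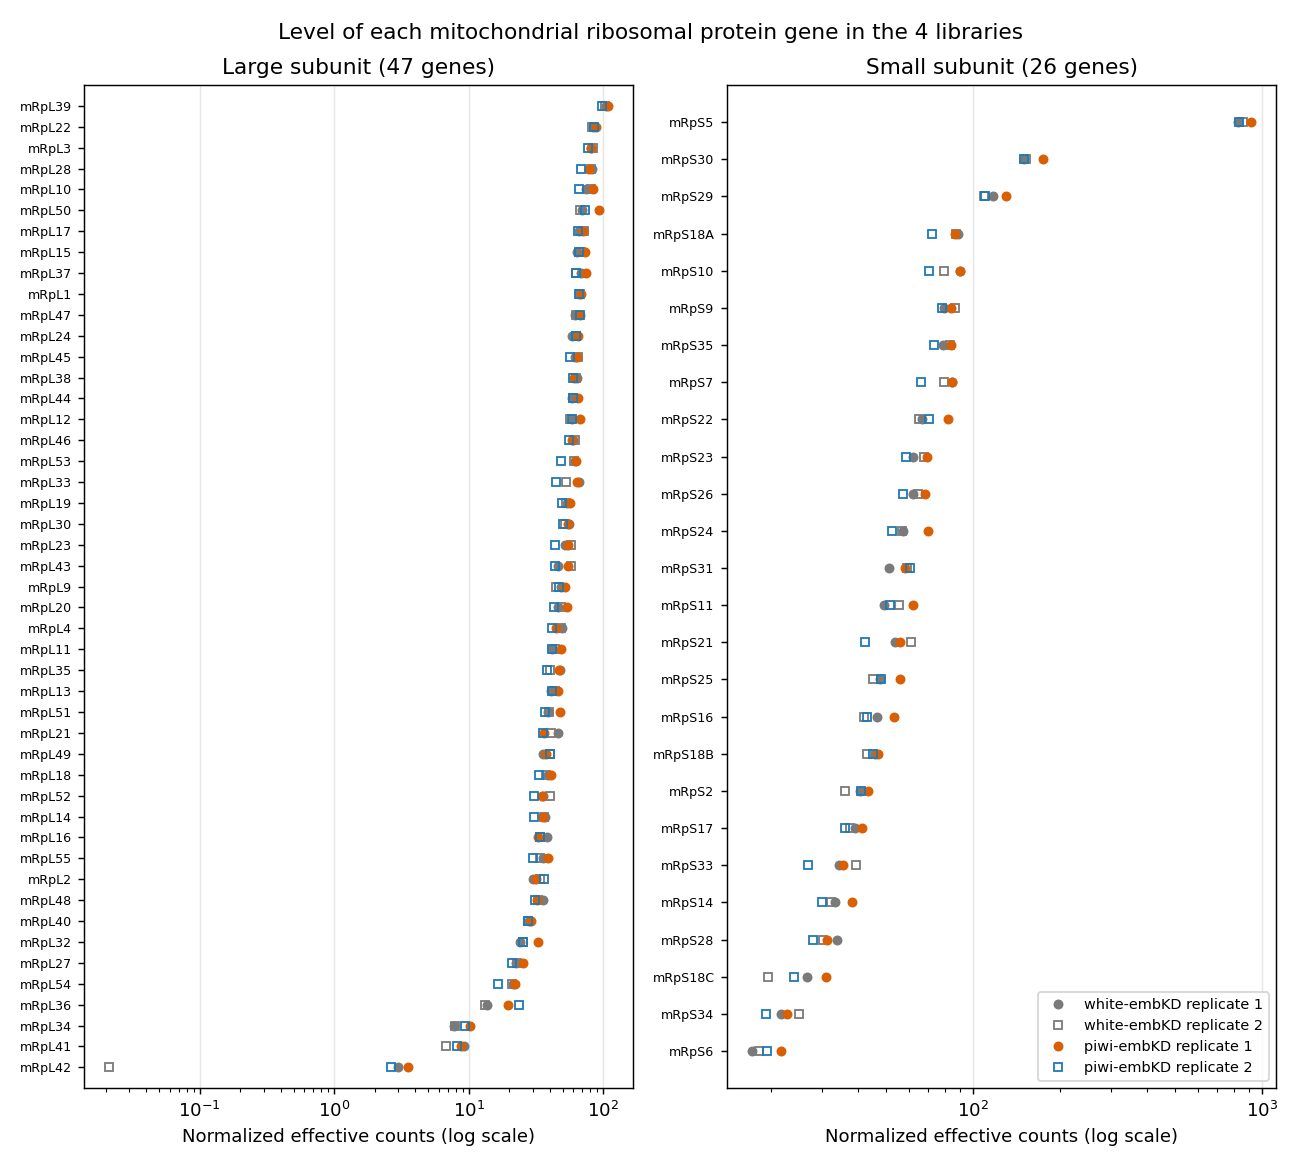
Level of each gene (y axis, ordered by mean level within the large and the small subunit) in normalized effective counts on a log scale (x axis), with a symbol for each of the 4 libraries. The libraries of both groups lie close together for nearly all genes, apart from mRpL42, which white-embKD replicate 2 lists at 0.02.

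The gene nearest to a call was mRpL36, which encodes a small protein with a homologue in the bacterial large subunit. It stood at 13.6 and 13.3 for white-embKD and at 19.5 and 23.8 for piwi-embKD. Both piwi libraries were high, replicate 2 more so, whereas most of the other genes were higher in replicate 1. Group means of mRpL36 were 13.5 ± 0.24 and 21.7 ± 2.997 (SD, n = 2 each), and its log2 change of 0.64 ± 0.15 SE did not pass (limma adjusted p = 0.0593). Leaving out piwi-embKD replicate 1 let it pass (log2 change 0.78, limma adjusted p = 0.00789), as did leaving out piwi-embKD replicate 2 (0.50, 0.0477) or using the replicate number as a block (0.0334). Without white-embKD replicate 1 or replicate 2 the limma adjusted p was 0.322 and 0.426, so the call turned on which library was left out, and over 13 alternatives the adjusted p ran from 0.00789 to 0.426. The gene next to it on the same strand, CG7550, had 18.1 and 17.8 for white-embKD and 15.6 and 14.5 for piwi-embKD.

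The other genes with the largest positive changes were smaller in effect or near the floor. The gene mRpL50, for a large-subunit protein found in mitochondria alone, stood at 69.4 and 67.2 for white-embKD and at 93.3 and 73.6 for piwi-embKD (log2 change 0.28 ± 0.13 SE, limma adjusted p = 0.257). Both piwi libraries lay above both white libraries, replicate 1 by far the most, and the gene was called without piwi-embKD replicate 2 (log2 change 0.45, limma adjusted p = 0.0138), whereas its change was 0.11 without replicate 1. The gene mRpL34, whose protein has a bacterial homologue, had 7.77 and 7.96 for white-embKD and 10.3 and 9.34 for piwi-embKD (log2 change 0.28 ± 0.16 SE, limma adjusted p = 0.313). For mRpS18C, a homologue of bacterial S18, the values were 26.5 and 19.4 against 30.9 and 23.9, and the groups overlapped (log2 change 0.25 ± 0.20 SE, limma adjusted p = 0.462). Its change was 0.03 without white-embKD replicate 2, 0.07 without piwi-embKD replicate 1, 0.43 without piwi-embKD replicate 2 and 0.46 without white-embKD replicate 1.

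The largest fitted change belonged to the gene with the lowest level, mRpL42, which encodes a large-subunit protein specific to mitochondria. It was listed at 2.97 and 0.02 for white-embKD and at 3.56 and 2.65 for piwi-embKD. In effective counts this was 60.0 and 0.42 against 56.7 and 43.5, so white-embKD replicate 2 alone was low, below the floor of 3 counts (a value of 0.151), which covers counting error only. The other white library lay between the piwi libraries, and the log2 change of 1.02 ± 0.61 SE (limma adjusted p = 0.341) depends on the pseudocount, from 0.42 with one 4 times as large to 1.84 with one that was 0.249. It was 0.04 without white-embKD replicate 2 and 2.005 without white-embKD replicate 1. How its level divided between its 2 transcripts also varied. The same one held 23.8% and 99.5% of the gene for white-embKD and 72.6% and 0.85% for piwi-embKD.

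The largest negative changes were also below the threshold. The gene mRpL21, for a homologue of bacterial L21, stood at 45.8 and 40.6 for white-embKD and at 36.5 and 35.6 for piwi-embKD. Neither piwi-embKD value reached the lower control value, and the log2 change was −0.25 ± 0.11 SE (limma adjusted p = 0.231). Taken singly, its 2 transcripts had log2 changes of −0.52 (limma adjusted p = 0.50015) and −0.05 (limma adjusted p = 0.920), the latter for the more abundant one. The values of mRpL4, a homologue of the bacterial L4 protein that lines the tunnel through which the new chain leaves, were 49.1 and 48.4 against 44.6 and 41.4 (log2 change −0.18 ± 0.10 SE, limma adjusted p = 0.334). Those of mRpL52, found in mitochondria alone, were 35.9 and 40.3 against 34.9 and 30.8 (−0.21 ± 0.13 SE, limma adjusted p = 0.345). In both of these genes the groups did not overlap.

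In 2 small-subunit genes the negative change came from piwi-embKD replicate 2. The gene mRpS33, for a protein specific to mitochondria, had 34.4 and 39.4 for white-embKD, 35.4 in piwi-embKD replicate 1 and 26.8 in replicate 2 (log2 change −0.25 ± 0.16 SE, limma adjusted p = 0.377). Likewise mRpS21, a homologue of bacterial S21, had 53.8 and 60.7 for white-embKD, 56.0 in piwi-embKD replicate 1 and 42.2 in replicate 2 (−0.23 ± 0.16 SE, limma adjusted p = 0.403). Replicate 1 lay within the range of the white libraries for both genes. Both were called without it, with log2 changes of −0.44 for mRpS33 (limma adjusted p = 0.0354) and −0.43 for mRpS21 (0.0248). Without piwi-embKD replicate 2 the changes were −0.06 and −0.03.

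Grouped by their place in the ribosome, as known from bacterial and mammalian structures, the genes gave 0 calls in each of 5 groups. Over all features 6.85% were called, and 59% had no overlap between white-embKD and piwi-embKD. With 3 to 8 genes each, 0 calls do not set these groups apart from all features. The 3 genes of the stalk that recruits translation factors, mRpL10, mRpL11 and mRpL12, had log2 changes from −0.05 to 0.12. The 6 genes near the peptidyl transferase centre and the exit tunnel, among them mRpL45, which in mammals anchors the ribosome to the inner membrane, ranged from −0.18 to 0.08, and the groups overlapped in 3 of the 6. The 6 genes of the central protuberance ranged from −0.10 to 0.03, and the groups overlapped in 3 of them.

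In the small subunit, the 8 head genes, among them mRpS29, which encodes a GTP-binding protein, had log2 changes from −0.25 to 0.11, and the groups overlapped in all 8. The 4 platform genes ranged from −0.23 to 0.25, and the groups overlapped in 3 of them. Median log2 changes were −0.01 for mRpL and 0.05 for mRpS symbols. They were 0.03 for the 43 proteins listed as homologues of bacterial ribosomal proteins and −0.02 for the other 30. That list was drawn up beforehand from ribosomal protein nomenclature, and no sequences were compared. It put mRpS18C in the first set and mRpS18A and mRpS18B in the second. Rescaling to the same total moved the median of all features from −0.04 to −0.08, so the signs of such medians depend on the scaling. These medians lay closer together than the 0.20 by which the piwi libraries differed from each other at the median gene.

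Levels between genes were compared per kilobase, since longer transcripts give more fragments. Coding length was used, which leaves out the untranslated ends of transcripts. The median was 78.6 normalized effective counts per kilobase, and the quartiles were 57.1 and 102.6. Between the quartiles lay a 1.80-fold range, where the same range over 7703 genes with a coding length was 5.30-fold around a median of 40.0. Genes with an mRpL symbol had a median of 74.1 and those with an mRpS symbol of 92.1 per kilobase. The order of the levels was nearly the same in both groups, with a Spearman correlation of 0.98 across the 73 genes between the white and the piwi means, a description over genes that share the same libraries.

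A few genes stood far from this level. The most abundant was mRpS5, a homologue of bacterial S5, at 827 and 860 for white-embKD and 919 and 836 for piwi-embKD. That is 705 per kilobase of coding length, 2.37 times the next gene, and between 18.0% and 19.2% of the summed level of all 73 genes. The groups overlapped (log2 change 0.06 ± 0.10 SE, limma adjusted p = 0.751), and without this gene the ratio of the summed levels was 1.004. Of its 3 transcripts the same one held 86.2% and 82.8% of the gene for white-embKD and 86.2% and 78.9% for piwi-embKD.

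Next in order per kilobase of coding length were mRpL33, a homologue of bacterial L33, at 297 and mRpS21 at 204. The order depends on the length used. Per kilobase of the longest transcript, mRpS5 stood at 605, mRpL33 at 163, mRpS18A at 144 and mRpS21 at 112. The coding sequence of mRpL33, of 192 bp, was the shortest of the 73, and its values were 66.3 and 52.9 for white-embKD and 64.3 and 44.7 for piwi-embKD. Replicate 2 was the lower library in both groups (log2 change −0.14 ± 0.20 SE, limma adjusted p = 0.682). The lowest were mRpL42 at 6.19 per kilobase, mRpL41, whose protein is specific to mitochondria, at 16.5, and mRpL34 at 36.4. For mRpL41 the values were 9.27 and 6.82 for white-embKD and 8.71 and 8.15 for piwi-embKD, both of which lay between the white ones.

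The 2 piwi-embKD libraries differed from each other in the same direction in nearly all of these genes. Replicate 1 was the higher in 68 of 73, with a median log2 difference of 0.20, whereas the white libraries split 39 to 34 with a median difference of 0.01. In 20 genes replicate 1 lay above both white libraries and replicate 2 below both, and in 0 genes was it the other way round. Over all features tested these numbers were 784 and 644 of 8118. As examples chosen after their values were seen, mRpS10 stood at 90.1 and 70.2 and mRpS7 at 84.3 and 65.9 in piwi-embKD replicates 1 and 2, with white libraries at 89.8 and 79.0 and at 84.2 and 79.2.

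This difference between the piwi libraries moved with coding length over all genes. Among genes outside the group, the median log2 difference of replicate 1 minus replicate 2 was 0.20 for coding lengths of up to 500 bp, 0.17 from there to 1000 bp, 0.06 to 2000 bp, −0.13 to 4000 bp and −0.23 above that. The mitochondrial ribosomal protein genes are short, with a median of 576 bp and a range from 192 to 1671 bp. Their medians in the first 3 classes were 0.32, 0.16 and 0.14. Among genes of up to 1000 bp with a mean level of 20 to 120, replicate 1 was the higher in 84.7% of 1281 other genes and in 94.7% of the 57 mitochondrial ribosomal protein genes, and the part of length in the difference was not tested further.

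**Figure D3:**
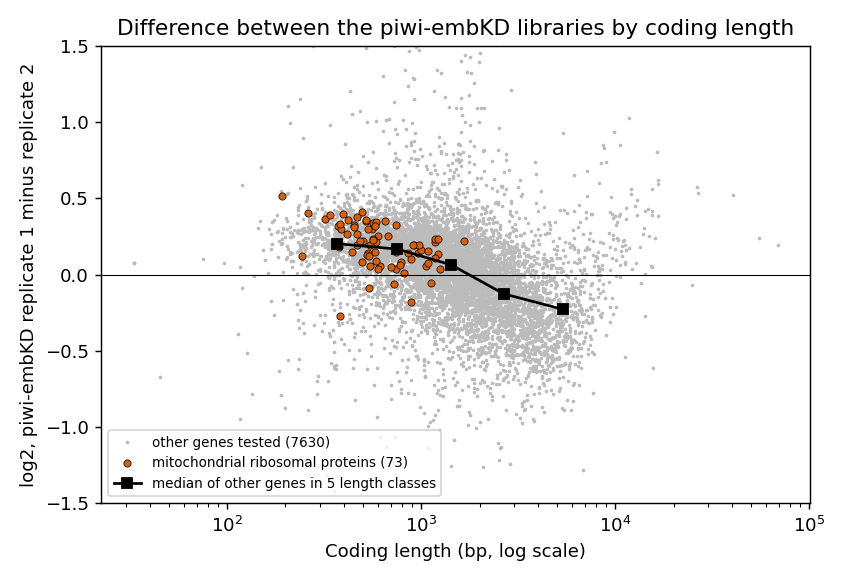
Log2 difference between the piwi-embKD libraries (y axis, replicate 1 minus replicate 2) against coding length in bp on a log scale (x axis) for each gene tested. Grey points are 7630 other genes, orange points the 73 mitochondrial ribosomal protein genes and black squares the medians of the other genes in 5 length classes. The squares go down from 0.20 to −0.23, and 68 of 73 orange points lie above 0.

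The rest of the mitochondrial translation machinery held 0 called genes as well. Of 36 genes, all tested, limma called 0 higher and 0 lower, where it called 6.85% of all features. At an unadjusted p under 0.05 it placed 1 higher and 5 lower, where 25.1% of all features were placed. The median log2 change of the 36 genes was −0.06. Ribosomal proteins with other symbols are tko, the S12 protein of the decoding site, and bonsai, the S15 protein. Levels of tko were 81.2 and 84.7 for white-embKD and 83.7 and 63.2 for piwi-embKD (log2 change −0.19, limma adjusted p = 0.459). Those of bonsai were 90.9 and 94.2 against 95.2 and 82.2 (−0.06, limma adjusted p = 0.739). In both, piwi-embKD replicate 2 was the lowest of the 4 libraries.

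The next values were chosen after they were seen. Among the elongation, initiation and release factors, mEFTu1, which brings charged tRNA to the ribosome, had the lowest p. It stood at 129 and 135 for white-embKD and at 168 and 167 for piwi-embKD (log2 change 0.34 ± 0.09 SE, limma adjusted p = 0.0782). Among 19 genes for charging mitochondrial tRNAs, ArgRS-m, the arginyl-tRNA synthetase, had 37.4 and 38.9 against 28.2 and 28.5 (log2 change −0.42 ± 0.11 SE, limma adjusted p = 0.0805). Both genes had groups that did not overlap, and neither passed. The gene of ArgRS-m overlaps mRpS9 on the opposite strand, so their values are uncertain. Of 16 genes for mitochondrial DNA, its transcription, protein import and upkeep, 0 were called, with a median log2 change of −0.02. One of these, PolG2, had values equal to those of GatC, among the 19 charging genes, in every library. The levels of both are therefore uncertain.

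Other groups of nuclear genes for ribosomes and mitochondria are given for comparison. Of 86 cytosolic ribosomal protein genes tested, 0 were called, where 6.85% of all features were. Their log2 change was above 0 for 79, with a median of 0.14, where it was below 0 for 55.7% of all features. Against the white mean, the median of these 86 genes was 0.22 in piwi-embKD replicate 1 and 0.04 in replicate 2. Above both white libraries lay 81 of them in replicate 1 and 45 in replicate 2, against 3283 and 3056 of all 8118 features. Of 67 genes of nuclear-encoded oxidative phosphorylation tested, 41 had a change above 0, and the median was 0.02. Limma called 2 of them higher and 0 lower, where it called 5.17% of all features higher and 1.68% lower. The 2 were SdhB, a subunit of succinate dehydrogenase, a complex with no subunit from mitochondrial DNA, and blw, the alpha subunit of ATP synthase. Levels of SdhB were 40.9 and 39.3 for white-embKD, 71.6 and 58.7 for piwi-embKD (log2 change 0.68, limma adjusted p = 0.0321), and those of blw were 554 and 529, then 747 and 746 (0.46, limma adjusted p = 0.0358). In these groups too the piwi-embKD libraries differed from each other, with replicate 1 higher in 78 of 86 and in 58 of 67 genes.

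**Figure D4:**
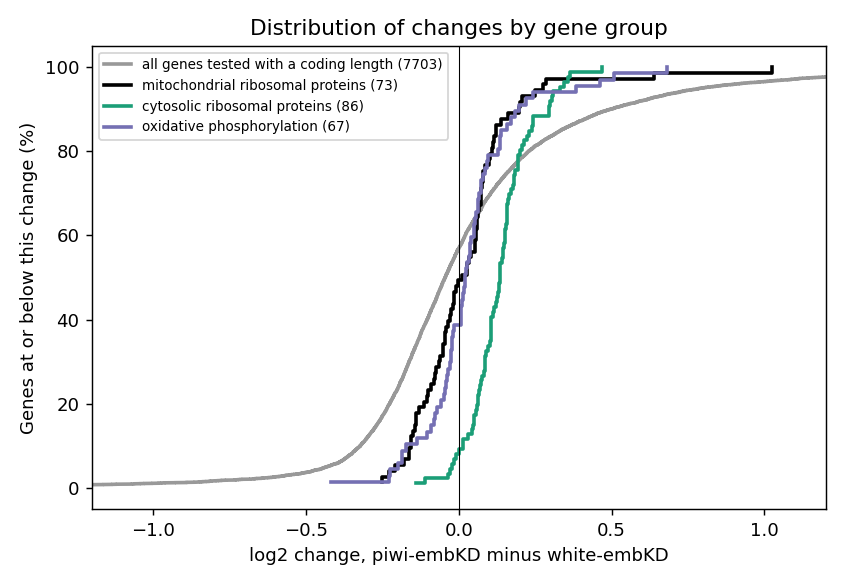
Percentage of genes (y axis) at or below a given log2 change between the groups (x axis, piwi-embKD minus white-embKD) for 7703 genes with a coding length and 3 gene groups. The curve of mitochondrial ribosomal protein genes is steep and crosses 50% near 0.01, that of cytosolic ribosomal protein genes near 0.14, and the curve of all genes is the widest.

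In the genome the 73 genes were spread over all large chromosome arms, with 12 on 2L, 12 on 2R, 17 on 3L, 21 on 3R and 11 on X. Median log2 changes by arm ran from −0.05 on X to 0.03 on 3L. In the Ensembl annotation of assembly BDGP6, which served here for lengths and neighbours only, 51 of the 73 (69.9%) had a protein-coding gene on the opposite strand whose start lay within 500 bp of their own, against 24.96% of all 13945 protein-coding genes. Another gene overlapped 43 of them (58.9%, against 47.4% of all protein-coding genes), so values of these 43 are uncertain where strand was not used. Among them are mRpL34, mRpL41, mRpL42, mRpL50, mRpL4, mRpS18C, mRpS21 and mRpS33. The median log2 change was 0.05 for these 43 and −0.01 for the 30 without an overlap. On the same strand, mRpL53, mRpS14 and mRpL13 overlapped CG33155, CG32533 and CG10602. The mRpL53 transcript had values equal to those of a CG33155 transcript in all 4 libraries (61.7 and 60.2 for white-embKD, 63.0 and 48.1 for piwi-embKD), so its level is uncertain.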

How the data were processed

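Total RNA from ovaries was depleted of ribosomal RNA, 4 µg per library, and sequenced as paired reads of 150 nt, per the labels' protocols. For each library the authors deposited a signal for 29637 targets, and per the file headers and names this is an eXpress effective count times a factor. The submitters' processing notes also name Bowtie2, STAR, Cufflinks and dm3, without saying what each was used for. How the factor was set, and whether strand was used, is not given in the sources used here.

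RefSeq's gene table for Release 6 gave the symbols of transcripts (28593 of 29511, 96.9%), which were summed per gene, and the 126 transposon sequences and 918 unmatched transcripts stayed as features. Groups and replicate numbers came from the sample titles. Features with a mean of at least 0.995, the mean column total divided by 1e+06, were tested on log2(value + 0.995) with limma 3.58.1 in R 4.3.3 (intensity trend, two-sided, Benjamini-Hochberg over 8118 features, threshold 0.05), after a test on simulated data. Fold changes on this scale understate changes at low levels. The values are not whole reads, so no count test was run. Depth assumes that the smallest step is 1e-06 of a count. Genes are named in full for the 5 largest changes in each direction and the 3 highest and lowest levels per kilobase. Of the other lists, tko, bonsai and genes of oxidative phosphorylation that passed are given, and other genes named were chosen after their values were seen. Members, lists and structural groups were chosen with earlier results of these data known.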

Additional observations from a re-analysis of the deposited data

How the results depend on the processing

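The counts of 0 called higher and 0 called lower held under rescaling to the same total, median-of-ratios scaling, both other pseudocounts, both other filters, transcripts left unsummed (89 transcripts tested) and no intensity trend. With the replicate number as a block 1 gene, mRpL36, was called higher (log2 change 0.64, limma adjusted p = 0.0334). The same-numbered libraries deviated together only weakly (r = 0.06 across features), so the numbers are not taken as pairs. Fits with a library left out gave 0 to 3 genes higher and 0 to 6 lower, a median log2 change from −0.0948 to 0.0981 and a ratio of summed levels from 0.945 to 1.08. The median of −0.0948 was that of piwi-embKD replicate 2 alone against the white libraries, and 0.0981 that of replicate 1 alone. In 37 of the 73 genes the sign of the change differed between the fits that left out piwi-embKD replicate 1 and replicate 2. The same count was not made over all features, so it does not set these genes apart. Among the 13 genes named by rule, signs turned for mRpS5 (−0.0126 without piwi-embKD replicate 1, up to 0.12 in the other such fits), mRpL33 (0.12 without piwi-embKD replicate 2 and 0.02 without white-embKD replicate 1, down to −0.40 in the others) and mRpL41 (−0.12 without white-embKD replicate 2, up to 0.27 in the others). The cause was not tested. Over all features the 556 calls became 105 with no filter, 91 with transcripts unsummed, 239 and 209 without white-embKD replicates 1 and 2, and 2902 and 1613 without piwi-embKD replicates 1 and 2. The ratio without mRpS5 and the classes of coding length were chosen after seeing the data. With 2 libraries a group, the test adjusted over all features did not call even the change of 0.64 in mRpL36, so small changes may be missed.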
